A study of Mus musculus with 6 samples.

Results

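The 9 genes Ccr2, Ccr4, Ccr6, Ccr7, Ccr8, Cxcr3, Cxcr4, Cxcr5 and Cxcr6, which encode chemokine receptors of helper T cells, were taken by symbol from a table of 24182 genes, and all 9 were found there once. The libraries came from mouse Th17 cells, the CD4+ helper T cells that make interleukin 17, either with a CRISPR/Cas9 knockout of Sirt2 (KO, 3 libraries) or from control Th17 cells (WT, 3 libraries). Sirt2 encodes an NAD-dependent deacetylase. Both genotypes had been activated for 72 hours through CD3 (antibody at 0.5 μg/mL) and CD28 (1 μg/mL) and were otherwise labelled untreated, and the values are expression in FPKM, fragments scaled by gene length and library total. The labels give no strain, age or animal for the cells and do not say whether replicates were separate cultures, so p-values reflect only how far these libraries differed among themselves, possibly for technical reasons.

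Chemokine receptors are receptors with a heptahelical membrane domain that couple to inhibitory G proteins and steer cells along gradients of small secreted ligands. Helper T cell lineages are known for distinct sets of them: CCR6, the receptor of CCL20, marks Th17 cells, CXCR3, the receptor of CXCL9, CXCL10 and CXCL11, marks Th1 cells, CCR4 and CCR8 are linked to Th2 and regulatory cells, and CXCR5 to follicular helper cells. CCR7 and CXCR4 guide T cells into lymph nodes and bone marrow, CXCR6 binds the membrane-bound ligand CXCL16, and CCR2 binds CCL2 and marks effector and memory cells as well as monocytes.

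Sirt2 itself measured 10.9 to 13.5 FPKM across KO and 19.9 to 21.9 FPKM in WT, so its RNA was lower in every KO library and not absent. The T helper identity of the libraries was seen in Cd4 (89.4 to 102 FPKM over all 6) and Il17a (16.0 to 26.7 FPKM), which encodes the Th17 cytokine interleukin 17A. Between 10642 and 10958 genes reached 1 FPKM per library. KO replicate 3 stood apart from the other KO libraries: over genes, not independent of one another, KO replicates 2 and 3 had the lowest correlation of any pair (0.979), and KO replicates 1 and 2 correlated at 0.992. Members reaching 1 FPKM in at least 3 libraries were tested with limma on log2(FPKM + 1) in a fit over all 10873 such genes, and a change was called at a Benjamini-Hochberg adjusted p under 0.05.

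The sequence before the start of transcription is shown for the 4 members with the smallest p between genotypes (Cxcr6, Cxcr3, Cxcr4 and Ccr6), chosen after their values were seen. RefSeq windows were found for 7 of the 9 members, all but Ccr7 and Cxcr5. Ccr6 has an upstream start and a second one 6483 bases downstream, and deposited transcripts begin at both. Each run holds 250 bases before and 50 after a RefSeq start (GRCm38.p6), 5′ to 3′ on the gene's strand, with capitals where one of 11 motifs matched on either strand. The deposited transcripts nearest to these starts began 0 bases away for both Ccr6 starts, 2 for Cxcr6, 6 for Cxcr4 and 122 for Cxcr3.
Ccr6, upstream start, chr17:8235793-8236092, plus strand: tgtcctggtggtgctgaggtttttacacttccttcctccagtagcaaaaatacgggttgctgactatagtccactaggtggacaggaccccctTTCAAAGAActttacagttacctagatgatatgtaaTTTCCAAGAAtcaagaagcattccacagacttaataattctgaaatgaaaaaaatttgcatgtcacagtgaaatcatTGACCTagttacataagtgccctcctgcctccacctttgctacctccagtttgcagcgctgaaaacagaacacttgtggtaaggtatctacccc
Ccr6, second start, chr17:8242276-8242575, plus strand: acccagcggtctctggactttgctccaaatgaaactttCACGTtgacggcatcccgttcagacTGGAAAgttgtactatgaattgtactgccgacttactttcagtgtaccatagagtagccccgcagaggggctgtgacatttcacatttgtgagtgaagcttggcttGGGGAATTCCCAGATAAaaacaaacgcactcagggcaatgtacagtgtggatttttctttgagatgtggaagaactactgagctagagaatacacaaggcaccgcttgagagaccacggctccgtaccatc
Cxcr4, chr1:128592250-128592549, minus strand: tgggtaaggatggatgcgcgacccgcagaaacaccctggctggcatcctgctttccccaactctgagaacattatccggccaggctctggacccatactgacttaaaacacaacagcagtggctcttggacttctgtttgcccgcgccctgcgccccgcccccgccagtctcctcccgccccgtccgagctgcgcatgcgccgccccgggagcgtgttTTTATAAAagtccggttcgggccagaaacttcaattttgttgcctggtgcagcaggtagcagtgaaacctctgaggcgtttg
Cxcr3, chrX:101734098-101734397, minus strand: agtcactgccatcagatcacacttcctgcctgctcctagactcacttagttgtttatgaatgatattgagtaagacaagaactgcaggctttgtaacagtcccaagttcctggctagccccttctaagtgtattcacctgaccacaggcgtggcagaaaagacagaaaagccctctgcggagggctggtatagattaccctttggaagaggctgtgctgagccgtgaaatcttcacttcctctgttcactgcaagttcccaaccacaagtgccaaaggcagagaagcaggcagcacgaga
Cxcr6, chr9:123806227-123806526, plus strand: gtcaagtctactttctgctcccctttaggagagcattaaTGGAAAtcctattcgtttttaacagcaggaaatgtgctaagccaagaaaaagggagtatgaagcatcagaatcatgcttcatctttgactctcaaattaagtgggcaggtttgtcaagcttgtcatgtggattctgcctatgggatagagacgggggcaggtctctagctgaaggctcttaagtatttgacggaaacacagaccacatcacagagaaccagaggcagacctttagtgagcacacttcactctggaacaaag

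The motifs, listed after the values were known, were the ROR core AGGTCA, the T-box core AGGTGT, the forkhead core GTAAACA, the KLF core CCACCC, the STAT palindrome TTCNNNGAA, the AP-1 site TGANTCA, the GATA core AGATAA, the NFAT core TGGAAA, the HIF core ACGTG, the TATA box TATAAA and the NF-kB consensus. The upstream Ccr6 window held a ROR core at -44 from the start on the reverse strand, and 2 STAT palindromes at -157 and -120. The latter of these overlaps an NFAT core. Of 32851 promoter windows of the same length, 16.3% held the ROR core, 8.30% the STAT palindrome and 21.4% the NFAT core. The second Ccr6 window held neither a ROR core nor a STAT palindrome, and it held the NF-kB consensus (4.51% of windows) as 3 overlapping matches at -81 and -80, with a GATA core (11.2%), an NFAT core and a HIF core (19.6%). The Cxcr4 window held the TATA box (13.6%) in 2 overlapping matches on opposite strands at -32 and -30, and 20 CpG dinucleotides against a median of 7 over all windows. Cxcr6 had an NFAT core and Cxcr3 no match. The other motifs, in 13.7% (T-box), 3.65% (forkhead), 31.5% (KLF) and 7.81% (AP-1) of windows, matched none of these 5 runs. A match is a description of letters and was not tested for binding.

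In WT cells the receptors ran in level from Ccr7 down to Ccr2. Ccr7 led at 165 to 177 FPKM, the 271st highest gene of the whole table by WT mean, and gave 56.8 to 60.3 percent of the summed FPKM of the 9 genes in each library. Ccr4 followed at 45.4 ± 0.920 FPKM (SD, n = 3). Ccr6 (29.7 ± 2.74 FPKM) and Ccr8 (29.3 ± 1.76 FPKM) overlapped in their ranges and were not apart in level. Cxcr4 stood at 8.63 ± 1.19 FPKM, and Cxcr5 (3.66 ± 0.151 FPKM) and Cxcr3 (3.61 ± 0.486 FPKM) again overlapped. Cxcr6 was below 1 FPKM in each WT library (0.694, 0.748 and 0.902 FPKM), and Ccr2 was lowest at 0.0504, 0.136 and 0.0834 FPKM. Every other pair of neighbours in this order was apart in all libraries. In KO cells Ccr7 and Ccr4 still led, Ccr8 and Ccr6 overlapped, and Cxcr4 (6.02 ± 2.62 FPKM) now overlapped Cxcr3 (5.05 ± 0.920 FPKM), which overlapped Cxcr5 (4.03 ± 0.526 FPKM). The summed FPKM of the 9 genes was 244, 275 and 316 in KO replicates 1 to 3 and 287 to 294 in WT, so that the KO libraries lay on both sides of the WT range. FPKM is per length and relative to each library's total, and in bulk RNA fewer cells of a type and less RNA per cell cannot be told apart.

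**Figure D1:**
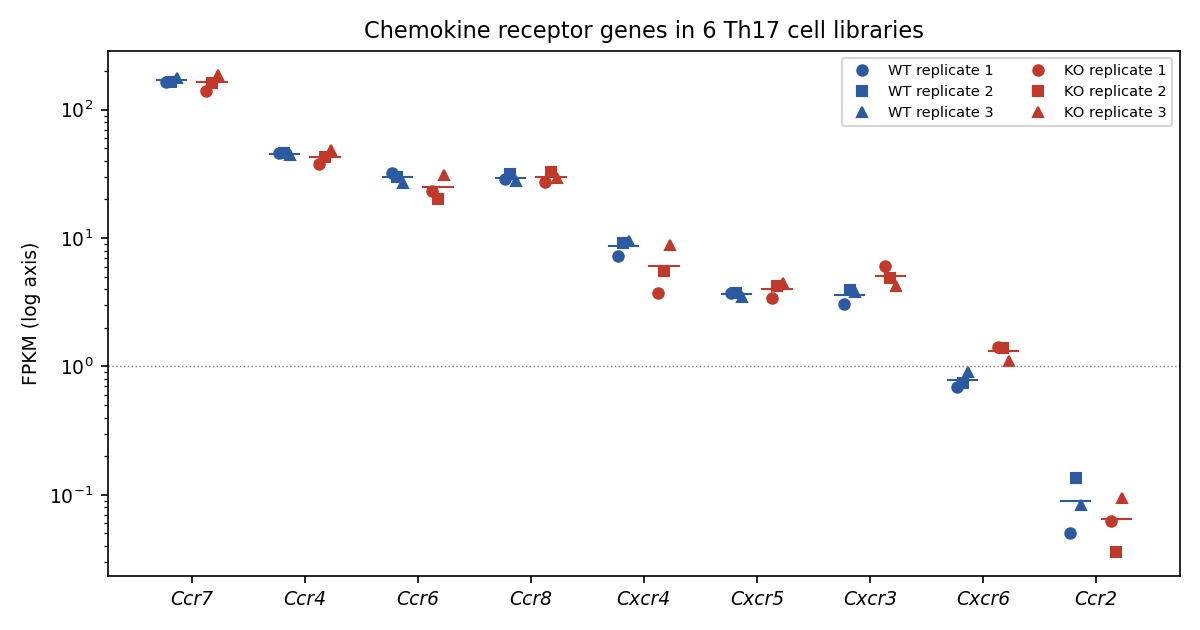
FPKM (log axis) of the 9 chemokine receptor genes, with a point per library, WT in blue and KO in red, and a bar at the mean of each group of 3. Ccr7 lies at 141 FPKM or more in all 6 libraries, and only Cxcr3 and Cxcr6 have every KO point above every WT point.

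No receptor gene passed the test between genotypes. On the log2(FPKM + 1) scale, among the 8 tested members, the most positive differences were those of Cxcr3 and Cxcr6 and the most negative those of Cxcr4 and Ccr6. Of the 8 members tested 0 were called, with limma adjusted p from 0.806 to 0.957, where 0.110 percent of all tested genes (12 of 10873) were. By unadjusted limma p under 0.05 there were 2, Cxcr6 and Cxcr3, beside 610 of all tested genes. Of the 8, 4 differences were positive and 4 negative, with a median of -0.01 beside -0.03 over all tested genes, and the median absolute difference was 0.19 beside 0.08. Ccr2 was under the filter and not tested.

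Cxcr3 (chromosome X, 101731535 to 101734269, minus strand), the Th1-associated receptor, measured 6.05, 4.86 and 4.25 FPKM in the KO libraries against 3.05, 3.97 and 3.80 FPKM in WT replicates 1 to 3. Every KO library was above every WT library; the nearest were KO replicate 3 and WT replicate 2. The ratio of means was 1.40 and the log2 difference 0.39 (SE 0.134, 95% interval 0.08 to 0.70, limma adjusted p = 0.843). Cxcr6 (chromosome 9, 123806475 to 123811760, plus strand), a receptor of effector and tissue-resident T cells, was at 1.41, 1.40 and 1.11 FPKM in KO against 0.694, 0.748 and 0.902 FPKM in WT. The groups did not overlap, the ratio of means was 1.68, and the log2 difference was 0.37 (SE 0.112, 95% interval 0.11 to 0.63, limma adjusted p = 0.806). Because each WT value was under 1 FPKM, Cxcr6 entered the test only through its KO libraries, and a gene that enters this way has to differ. Genes with every KO library above every WT library made up 4.28 percent of those tested, and genes with every KO library below made up 6.88 percent. Of the members 2 and 0 did so, and with Cxcr6 favoured by the filter this count supports nothing on its own. The authors' deposited table gives q = 0.685 for Cxcr3 and q = 0.557 for Cxcr6.

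Cxcr4 (chromosome 1, 128588199 to 128592293, minus strand), the receptor of CXCL12, was at 3.70, 5.50 and 8.86 FPKM in KO against 7.27, 9.18 and 9.45 FPKM in WT. KO replicates 1 and 2 lay below all WT libraries and KO replicate 3 among them. The ratio of means was 0.697, and the log2 difference of -0.52 (SE 0.247, 95% interval -1.09 to 0.06, limma adjusted p = 0.843) did not exceed the spread between libraries. Ccr6 (chromosome 17, 8236043 to 8257141, plus strand), the Th17-defining receptor, was at 23.1, 20.3 and 31.0 FPKM in KO against 32.2, 30.2 and 26.7 FPKM in WT. Here too KO replicates 1 and 2 were below all WT libraries, while KO replicate 3 was second only to WT replicate 1. The log2 difference was -0.27 (SE 0.148, 95% interval -0.61 to 0.08, limma adjusted p = 0.843). The coefficient of variation of Cxcr4 was 43.5 percent in KO and 13.8 percent in WT, and that of Ccr6 22.3 and 9.22 percent.

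Ccr7, the lymph node homing receptor (chromosome 11, 99144196 to 99155077, minus strand), was at 141, 163 and 188 FPKM in KO against 166, 165 and 177 FPKM in WT. KO replicate 1 was the lowest of the 6 libraries and KO replicate 3 the highest. Ccr4, the receptor of CCL17 and CCL22 (chromosome 9, 114490316 to 114504916, minus strand), had the same arrangement, at 37.6, 42.9 and 49.0 FPKM in KO against 45.9, 46.0 and 44.4 FPKM in WT. The log2 differences were -0.06 for Ccr7 (95% interval -0.30 to 0.19) and -0.08 for Ccr4 (95% interval -0.30 to 0.14). Their spread was wider among KO libraries, with a coefficient of variation of 14.3 against 4.0 percent for Ccr7 and 13.2 against 2.02 percent for Ccr4. Ccr8, the receptor of CCL1 and CCL8 (chromosome 9, 120092114 to 120094906, plus strand), was at 27.6, 32.8 and 29.5 FPKM in KO against 28.8, 31.3 and 27.9 FPKM in WT, with a log2 difference of 0.03 (95% interval -0.17 to 0.22). It had the narrowest interval of the 8 members, and its groups overlapped throughout. Cxcr5, the receptor of CXCL13 that leads cells into B cell follicles (chromosome 9, 44511787 to 44561877, minus strand), was at 3.44, 4.21 and 4.45 FPKM in KO against 3.72, 3.77 and 3.49 FPKM in WT, a log2 difference of 0.11 (95% interval -0.13 to 0.34). KO replicate 1 was the lowest library and the other KO libraries were the highest. Ccr2 (chromosome 9, 124101950 to 124113557, plus strand) was at 0.0623, 0.0360 and 0.0949 FPKM in KO, with KO replicate 2 the lowest of all libraries. Limma adjusted p was 0.924 for Ccr7, 0.894 for Ccr4, 0.957 for Ccr8 and 0.876 for Cxcr5.

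**Figure D2:**
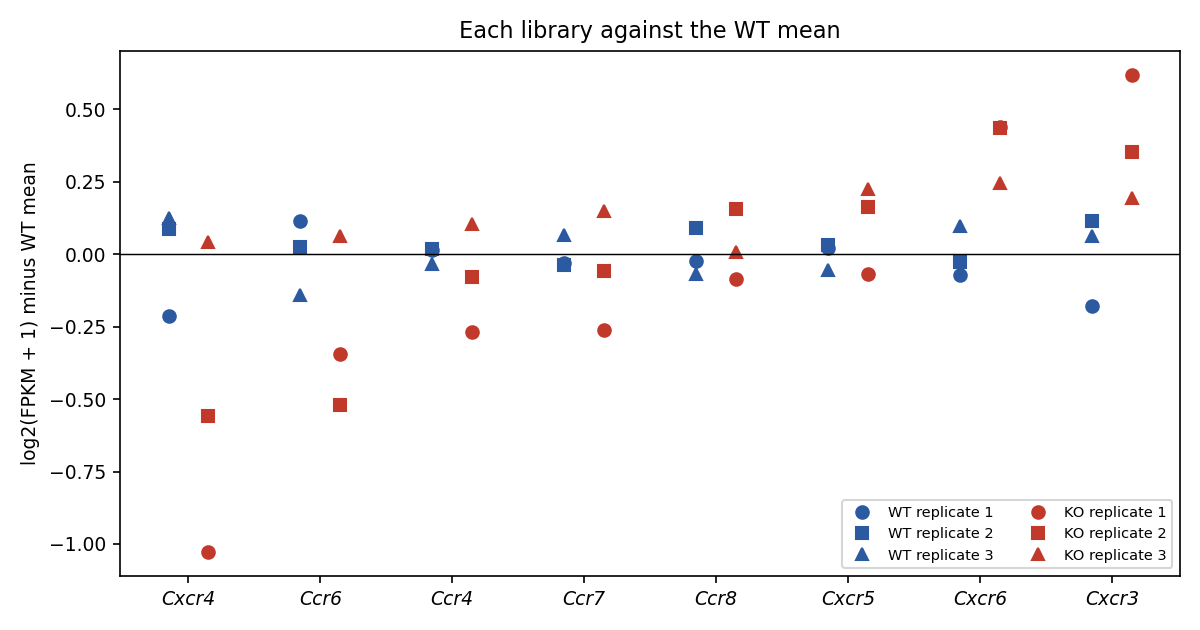
Difference of each library from the WT mean on the log2(FPKM + 1) scale for the 8 tested receptor genes, ordered by their genotype difference, WT in blue and KO in red. For Cxcr4 and Ccr6 KO replicates 1 and 2 lie between -1.03 and -0.34 and KO replicate 3 near 0, whereas for Cxcr6 and Cxcr3 all 3 KO points are above the WT points.

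The KO libraries differed among themselves in these genes. In KO replicate 1, Cxcr4, Ccr6, Ccr4 and Ccr7 were at -1.03, -0.34, -0.27 and -0.26 from the WT mean on the log2 scale. In KO replicate 3 the same 4 genes were at 0.04, 0.06, 0.11 and 0.15. Cxcr3 was at 0.62, 0.35 and 0.19 in KO replicates 1 to 3 and Cxcr6 at 0.44, 0.43 and 0.25. In all 6 of these genes KO replicate 3 was nearer to the WT mean than KO replicate 1. Of the remaining tested members, Ccr8 did the same (-0.08 in KO replicate 1 and 0.01 in KO replicate 3). Cxcr5 went the other way, at -0.07 in KO replicate 1 and 0.23 in KO replicate 3.

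Without KO replicate 3, 3 of the 7 members still tested were called. Cxcr4 fell (log2 difference -0.79, limma adjusted p = 0.0287), Ccr6 fell (-0.43, limma adjusted p = 0.0318) and Cxcr3 rose (0.49, limma adjusted p = 0.0493). In that fit 6.14 percent of all genes fell (659 of 10726) and 4.0 percent rose (429), so that calls were common throughout the table. Ccr4 (-0.17, limma adjusted p = 0.122), Ccr7 (-0.16, limma adjusted p = 0.173), Ccr8 (0.04) and Cxcr5 (0.05) did not pass. Cxcr6 was then under the filter, since only 2 of the remaining libraries reached 1 FPKM. KO replicates 1 and 2 also carried a trend with gene length: the Spearman correlation of length with the difference from WT across tested genes was -0.32 and -0.45, against 0.20 in KO replicate 3 and -0.23 to 0.25 in WT. With trends of length and GC content removed as well, an alternative chosen after the data were seen, Cxcr4 (-0.81, limma adjusted p = 0.0340) and Ccr6 (-0.47, limma adjusted p = 0.0466) stayed called and Cxcr3 did not (0.44, limma adjusted p = 0.0822). Over all 14 alternatives Cxcr4 ran from -0.81 to -0.26 and Ccr6 from -0.47 to -0.14, with limma adjusted p up to 0.9999 for both. For Cxcr3 13 alternatives gave 0.27 to 0.49 and limma adjusted p from 0.0493 to 0.9999. Without KO replicate 1, the library with the lowest Cxcr4 and the highest Cxcr3, Cxcr4 was at -0.26 and Cxcr3 at 0.27.

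**Figure D3:**
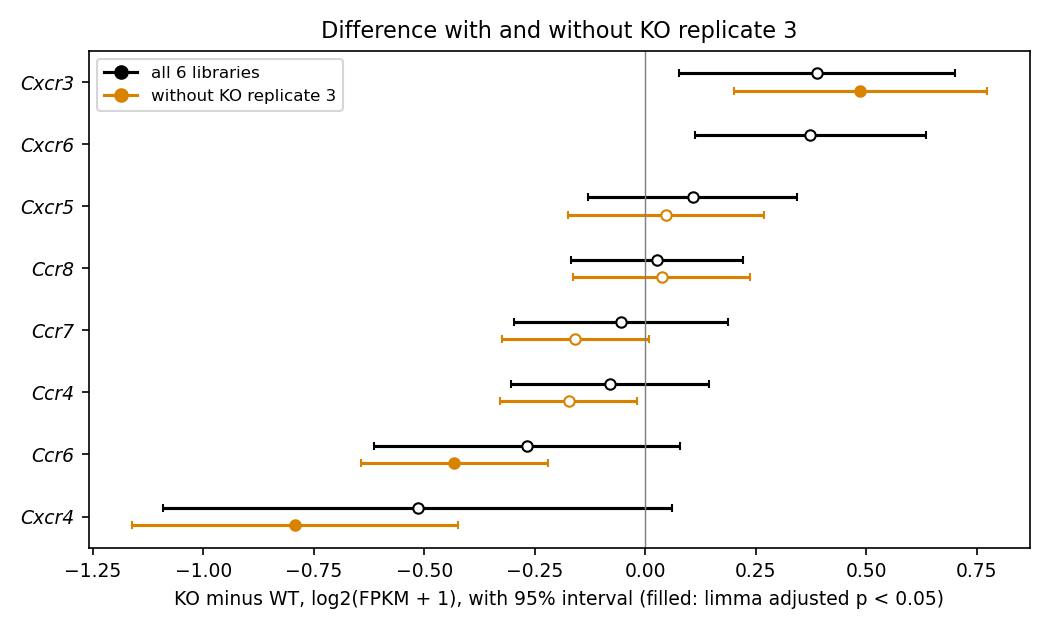
KO minus WT on the log2(FPKM + 1) scale with 95% intervals for the 8 tested receptor genes, from all 6 libraries (black) and without KO replicate 3 (orange); filled points passed at limma adjusted p under 0.05. Cxcr4, Ccr6 and Cxcr3 are filled only without KO replicate 3, and Cxcr6 has no orange point because it missed the filter.

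At the transcript level the table listed 22 transcripts of the 9 genes, of which 13 reached the filter and 0 were called, beside 0.0417 percent of all tested transcripts (8 of 19184). Ccr7, Ccr8, Cxcr3 and Cxcr6 had a single transcript each. One transcript carried 99.3 to 99.8 percent of the coverage of Ccr4 and 86.5 to 95.9 percent of that of Cxcr4, where coverage is FPKM times transcript length. Cxcr5 was divided between ENSMUST00000062215 (46.1 to 79.1 percent) and a longer form. By unadjusted limma p under 0.05 there was 1 of the 13, a form of Ccr6, and the share over all tested transcripts is not given here. The single transcripts of Cxcr3 and Cxcr6 had every KO library above every WT library without reaching that threshold. Their log2 differences (0.39 and 0.38) were close to those of their genes (0.39 and 0.37), which did reach it. The threshold alone therefore does not set Ccr6 apart.

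Of the 8 Ccr6 transcripts, 2 began at or near the upstream start, 1 at the second start and 5 further downstream, a grouping made after the values were seen. The form from the second start, ENSMUST00000097418, with 6 exons and 1755 bases, held 45.9 to 68.7 percent of Ccr6 coverage and was at 18.1, 16.5 and 24.6 FPKM in KO against 29.2, 18.3 and 20.8 FPKM in WT. The 2 transcripts at or near the upstream start together accounted for 33.6, 33.0 and 37.8 percent of coverage in KO and 27.3, 30.8 and 29.4 percent in WT. Their share was higher in each KO library than in any WT library, at 34.8 ± 2.63 against 29.2 ± 1.78 percent, and this was not tested. Their summed FPKM was 21.8 ± 6.31 in KO and 26.1 ± 0.823 in WT. Within that group the 2 transcripts had differences of opposite sign, and only the short form began inside the window that held the ROR core. The short form ENSMUST00000231340, with 2 exons and 419 bases, was at 7.31, 10.1 and 13.7 FPKM in KO against 17.0, 16.2 and 17.3 FPKM in WT, every KO library below every WT library, as in 6.36 percent of tested transcripts. Its log2 difference was -0.69 (SE 0.213, limma adjusted p = 0.793). The longer ENSMUST00000164411, with 3 exons and 1398 bases, was at 10.7, 8.11 and 15.4 FPKM in KO against 9.45, 10.6 and 7.86 FPKM in WT (0.24, limma adjusted p = 0.914). ENSMUST00000180103 from the downstream starts was at 11.6 FPKM in WT replicate 2 and at 0.370 to 3.75 FPKM in the other WT libraries. These forms overlap along the gene, so the division of reads among them is an estimate, and its error is not given.

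**Figure D4:**
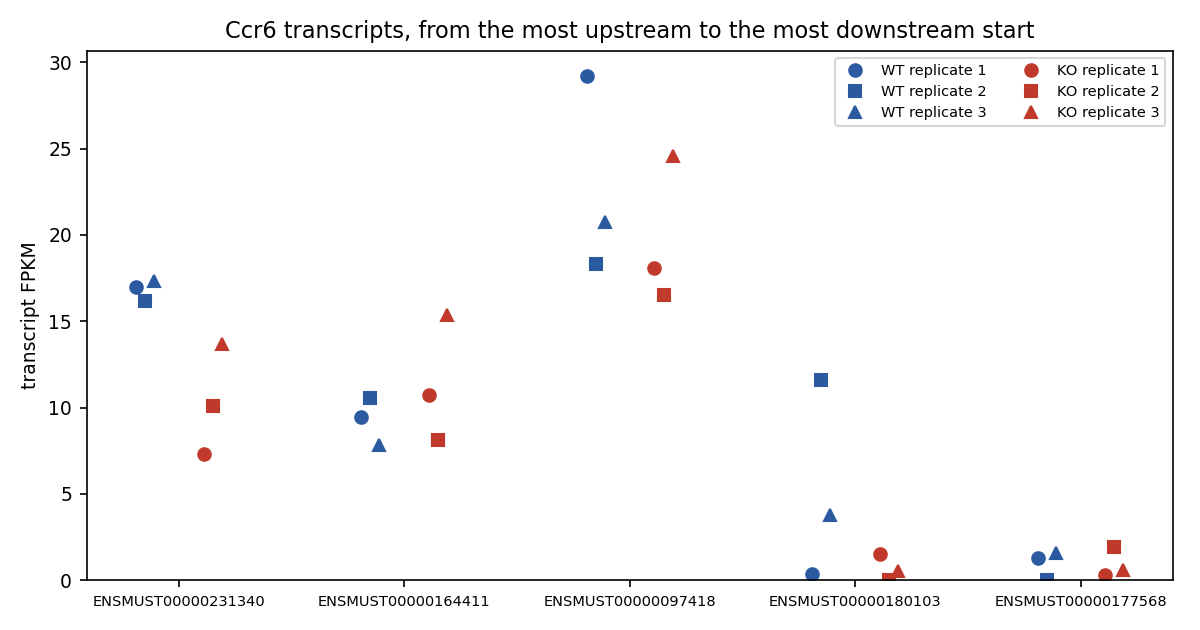
FPKM of the 5 Ccr6 transcripts that reached 1 FPKM in any library, ordered by start from upstream to downstream, with a point per library, WT in blue and KO in red. In the leftmost, short form all KO points (7.31 to 13.7 FPKM) lie below all WT points (16.2 to 17.3 FPKM), and the other forms overlap.

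Of 17 genes for ligands of these receptors, 10 were found in the gene table, 3 were tested and 1, Ccl22, rose. Ccl22, which encodes a ligand of CCR4, was at 6.07, 6.53 and 4.89 FPKM in KO against 0.709 to 0.798 FPKM in WT, a log2 difference of 1.95 (limma adjusted p = 0.00278), while its receptor gene Ccr4 was not called. Like Cxcr6, it entered the test only through its KO libraries. Ccl20, the CCR6 ligand, was at 5.88, 5.01 and 1.32 FPKM in KO against 3.17 to 4.95 FPKM in WT (limma adjusted p = 0.951). Cxcl10, a CXCR3 ligand, was at 9.38, 9.45 and 2.57 FPKM in KO against 5.52 to 6.13 FPKM in WT (limma adjusted p = 0.970). In both of these ligands KO replicate 3 was the lowest library. Among the KO libraries, replicate 3 was the highest in Ccr6 and the lowest in Cxcr3. Without KO replicate 3 Cxcl10 rose (0.60, limma adjusted p = 0.00879) and Ccl22 was under the filter. The CXCR4 ligand gene was under 1 FPKM, and none of the symbols used for ligands of CXCR5 and CCR7 was found in the gene table.

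Of 15 other chemokine receptor genes, 11 were listed and 0 reached the filter. The highest means were those of Ccrl2, an atypical receptor (0.465 ± 0.187 FPKM in KO against 0.389 ± 0.155 FPKM in WT), and Ccr3, the eotaxin receptor (0.272 ± 0.125 and 0.375 ± 0.128 FPKM). Several lie beside members on chromosome 9. Xcr1 lies 40.6 kb and Ccr9 22.1 kb from Cxcr6, at 0.0476 to 0.115 FPKM and 0 to 0.0124 FPKM. Cx3cr1 lies 22.2 kb from Ccr8, at 0.00954 to 0.122 FPKM beside 27.6 to 32.8 FPKM for Ccr8.

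Among 38 gene symbols of receptor signalling, 34 were tested and 0 were called, with a median log2 difference of -0.03, equal at this rounding to that of all tested genes. The symbols included Adrbk1, an older name of Grk2, which was tested as Grk2. At an unadjusted limma p under 0.05 there were 3, beside 610 of all 10873 tested genes. Rgs1, a regulator that shortens G protein signals from these receptors, was at 12.9, 13.5 and 19.8 FPKM in KO against 19.4 to 20.7 FPKM in WT (log2 difference -0.38, limma adjusted p = 0.843). This was the arrangement seen for Cxcr4, with KO replicate 3 close to WT. Rgs3 was at 3.24 ± 0.131 against 3.93 ± 0.235 FPKM and Rgs19 at 20.9 ± 0.757 against 22.9 ± 0.540 FPKM (limma adjusted p = 0.843 for both). The GTPase gene Rac2 was at 156 ± 5.09 against 142 ± 3.32 FPKM and the integrin-activating GTPase gene Rap1b at 272 ± 21.1 against 299 ± 11.4 FPKM. Coro1a, an actin regulator, was at 246 ± 20.2 against 232 ± 11.6 FPKM. Without KO replicate 3, 2 of the 34 rose and 2 fell, Rgs1 among the latter (limma adjusted p = 0.00647), where 4.0 percent of all genes rose and 6.14 percent fell.

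Of 25 transcription factor genes tied to helper T cell receptor programmes, 20 were tested and 0 were called, with a median of -0.08. At an unadjusted limma p under 0.05 there were 5, beside 610 of all 10873 tested genes. Tbx21, which encodes the Th1 factor T-bet, a known activator of Cxcr3, was at 4.38, 2.83 and 2.11 FPKM in KO against 1.48 to 1.62 FPKM in WT (log2 difference 0.64, limma adjusted p = 0.806). Its KO libraries stood in the same order as those of Cxcr3 and its WT libraries in the opposite order, and a link between the genes was not tested. Maf was at 8.21, 10.2 and 12.5 FPKM in KO against 13.7 to 15.4 FPKM in WT (-0.49, limma adjusted p = 0.738). Bach2 was at 19.6 to 21.7 against 22.8 to 25.2 FPKM and Ahr at 24.1 ± 4.92 against 30.7 ± 1.73 FPKM. Hif1a, whose product is known to act on Cxcr4, was at 103, 97.5 and 174 FPKM in KO against 141 to 155 FPKM in WT, and Irf4 at 107, 110 and 200 FPKM in KO against 167 to 175 FPKM in WT. Both had KO replicates 1 and 2 below and KO replicate 3 above all WT libraries. Without KO replicate 3, 2 of 19 rose, Tbx21 among them (limma adjusted p = 0.0230), and 7 fell, among them Maf (0.0168), Ahr (0.0117), Irf4 (0.00313) and Hif1a (0.00621), as limma adjusted p. Over all genes in that fit 4.0 percent rose and 6.14 percent fell.

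Several markers of other cells that can carry these receptors were higher in the KO libraries. Over all 24182 genes of the table, tested or not, 3.79 percent had every KO library above every WT library and 5.26 percent every KO library below, and the marker counts here are over all listed markers, most of them under the filter. Of 14 NK and CD8 markers, 12 were listed, and 7 of them (3 tested) had every KO library above every WT library and 0 below. The 12 markers summed to 26.5 to 30.3 FPKM in KO against 9.51 to 10.1 FPKM in WT, with Gzmb the largest single part in each KO library. Of these Gzmb (11.6 to 19.2 against 2.66 to 2.97 FPKM, limma adjusted p = 0.00675) and Gzmc (1.45 to 2.10 against 0.0958 to 0.379 FPKM, limma adjusted p = 0.0375) were called higher, Gzmc having entered the test only through its KO libraries, and 1 marker was listed at 0 in every WT library. NK and CD8 cells express Cxcr3 and Cxcr6, but these receptors are not particular to them, since CXCR3 also marks Th1 cells and CXCR6 effector T cells. Cd8a was at 0.225 to 0.436 FPKM in KO against 0.0856 to 0.120 FPKM in WT, and Cd8b1 overlapped at 3.18 to 5.92 and 3.75 to 4.89 FPKM. Klrd1, Prf1, Eomes and Xcl1 overlapped between genotypes as well, and Xcl1 was the marker at 0 in every WT library. Of 15 B cell markers, 7 (2 tested) were higher in all KO libraries and 0 lower, with sums of 59.9 to 67.9 and 52.0 to 53.9 FPKM. The rest of the 15 overlapped, among them Cd79a, Cd79b, Ms4a1, Cd22 and Cr2. Over the 15, 5 were listed at 0 in every WT library, Ms4a1, Cd22 and Cr2 among these. Of 22 myeloid and dendritic markers, 9 (2 tested) were higher in all KO libraries and 0 lower, with sums of 64.8 to 66.9 and 52.5 to 58.5 FPKM. The 3 listed at 0 in every WT library, S100a8, S100a9 and Clec4a2, overlapped between genotypes. The rest of the 22 overlapped too, among them Spi1, Tyrobp, Adgre1, Flt3, Cebpa and Ms4a6c. Lyz2 was at 8.31, 9.44 and 4.24 FPKM in KO against 0.782 to 1.38 FPKM in WT (limma adjusted p = 0.0503). Cd14, not tested, was at 0.881 to 1.49 against 0.0245 to 0.121 FPKM. Of 14 erythroid, stromal and endothelial markers 0 separated the genotypes, with sums of 2.35 to 4.53 and 3.05 to 5.04 FPKM. The part of other cells in the values of Cxcr3, Cxcr6 and the remaining receptors was not tested.

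By the root mean square difference of log2 profiles over the 6 libraries, the genes most like Cxcr6 were Rpl22l1 (0.0190), a ribosomal protein paralog, Vgll4 (0.0313) and Gem (0.0446), against a departure of Cxcr6 itself from the WT mean of 0.28. Those most like Cxcr4 were Cyp11a1 (0.0950), Gm16001 (0.104) and Anxa3 (0.111), against 0.49 for Cxcr4. Cyp11a1, a steroidogenic enzyme gene, was lowest in KO replicate 1, followed by 2.57 and 3.56 FPKM in KO against 3.64, 4.31 and 4.19 FPKM in WT. Those most like Cxcr3 were the unnamed loci Gm45716 (0.0366), Gm20324 (0.0854) and Gm48909 (0.0884), against 0.32. This is likeness over 6 libraries of 2 groups and was not tested.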

How the data were processed

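RNA was profiled in 3 Sirt2 KO and 3 WT libraries, grouped by their titles. The authors deposited gene and transcript FPKM, per the file headers. The deposited fold column is a ratio, the deposited log2 column its logarithm, and a p-value and a q-value for KO against WT are also deposited (tool: not given in the sources used here). Per the submitters' processing notes, the tools included HISAT2 and StringTie, with cutadapt and FastQC, and also edgeR and DESeq2, and the build was mm9. However, 73203 of 73430 transcripts found in GENCODE M21 had identical GRCm38 coordinates, which are printed. A member's gene FPKM equalled the sum of transcript FPKM times length, divided by 1 fixed length per gene.

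Because counts are not in these tables, depth is unknown, and at most 11.2 percent of low single-exon values fell within 0.02 of whole multiples of any step tried. The number of libraries, 3 per genotype, limits precision. Features at 1 FPKM or more in at least 3 libraries entered limma 3.58.1 (R 4.3.3) as log2(FPKM + 1), fitted with a trend on mean level and with Benjamini-Hochberg adjustment over all features. The pseudocount understates changes of low genes. The fit was tested on simulated data. Members, lists and rules were chosen with earlier results of these data known. Named genes were all members, per list the called genes, the 4 of smallest p and the 2 of highest mean, ligands at 1 FPKM or more, and the 3 nearest profiles of 3 members; single marker genes, Cyp11a1 among the nearest profiles, and the Ccr6 transcripts were picked out after their values were seen. Alternatives were no mean trend, a pseudocount of 0.1, median scaling, the filter dropped or raised to 5 FPKM, the replicate block, removal of length and GC trends, and leaving out each library. Figures used matplotlib 3.10.9. Values of some single genes are not reported here.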

Additional observations from a re-analysis of the deposited data

How the results depend on the processing

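With all 6 libraries no member gene was called under any alternative, and without KO replicate 3 the count was 3, or 2 with length and GC trends also removed, an alternative chosen after the data were seen. Leaving out any other library gave 0 members. No alternative called a member transcript. Signs reversed only in members with differences near 0: Ccr7 (0.047) and Ccr4 (0.013) without KO replicate 1, and Ccr8 without KO replicate 2 (-0.038) or WT replicate 3 (-0.0073), with length and GC trends removed (-0.013), and with these removed without KO replicate 3 (-0.043). On leaving out a library Ccr7 ranged from -0.16 to 0.047, Ccr4 from -0.17 to 0.013 and Ccr8 from -0.038 to 0.083. Cxcr6 had a difference of 0.34 to 0.68 in the 9 alternatives that tested it, the highest at a pseudocount of 0.1.

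Over all genes 12 were called, with 5 at a filter of 5 FPKM, 0 to 1088 on leaving out a library (0 without KO replicate 1 by limma, where 346 had an unadjusted p under 0.05), and 934 without KO replicate 3 after removal of length and GC trends. Over all transcripts 8 were called, with 4 without the filter, 25 without the mean trend, 3 with the replicate block and 1 to 6 on leaving out a library. Called ligands went from 1 to 0 at a filter of 5 FPKM and ranged from 0 to 1 on leaving out a library. Without KO replicate 3, called signalling genes went from 0 to 4 and called transcription factors from 0 to 9. With length and GC trends removed as well these were 5 and 6, and 2 adhesion and egress receptors were called. The cause of these changes was not tested. In some alternatives Cxcr6 and Ccl22 missed the filter and had no test.

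Deviations of same-numbered KO and WT libraries correlated at 0.00668, -0.0170 and -0.0756, within the range of the other pairs (-0.107 to 0.120). Correlations over all genes cannot settle whether same-numbered libraries belonged together. With the replicate block 13 genes were called and no member call changed (0 of 8). The SE of Cxcr4 was 0.152 with the block and 0.247 without it, at the same log2 difference of -0.52. The SE was also smaller with the block for Ccr7 and Ccr8, and larger for Ccr6, Ccr4, Cxcr5, Cxcr3 and Cxcr6. Depth is unknown, so levels under 1 FPKM, as for Ccr2, bear no floor.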

Other observations

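Other receptors of lymphocyte positioning were measured in the same libraries. Of 21 adhesion, egress and lipid chemoattractant receptors, 18 were tested and 0 were called by limma, with a median log2 difference of -0.01. At an unadjusted limma p under 0.05 there were 4, beside 610 of all 10873 tested genes. Gpr183, an oxysterol receptor that positions activated T cells, was at 22.0, 18.9 and 21.4 FPKM in KO against 17.4 ± 0.533 FPKM (SD, n = 3) in WT, with a log2 difference of 0.24 (limma adjusted p = 0.838). Unlike Cxcr4 and Ccr6, its KO replicate 3 lay with the other KO libraries. Ltb4r1, the leukotriene B4 receptor gene, was at 0.542, 2.05 and 1.69 FPKM in KO against 2.43 to 2.80 FPKM in WT (-0.62, limma adjusted p = 0.843). The adhesion genes Icam1 (11.7 ± 0.388 against 10.04 ± 0.400 FPKM) and Cd44 (24.9 ± 1.34 against 21.7 ± 0.834 FPKM) were higher in each KO library. The integrin gene Itgal was at 84.5 ± 3.53 against 89.5 ± 1.57 FPKM, and its partner Itgb2 at 78.5 ± 4.39 against 81.5 ± 1.63 FPKM.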
